A study of Mus musculus with 9 samples.

Results

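Acute phase proteins are plasma proteins whose level shifts within days of an injury or infection. Most are made by hepatocytes under the control of interleukin-6, interleukin-1 and glucocorticoids, but several of their genes are also transcribed outside the liver, in macrophages, neutrophils, fibroblasts and fat cells. This makes it possible to ask which of them were transcribed at the fracture itself.

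Described here are 10 genes of this kind: the serum amyloid A genes Saa1, Saa2, Saa3 and Saa4, haptoglobin (Hp), the alpha-1-acid glycoprotein genes Orm1 and Orm2, the pentraxin genes Crp and Apcs, and Lbp, the lipopolysaccharide binding protein. The genes were listed by name, and all 10 had a row in the table of 24367 rows and 22354 gene symbols. The row of each gene was chosen by the highest mean signal over the 9 arrays, and since each gene had 1 row, this choice changed nothing.

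The arrays came from 9 female mice, aged 2 months by the labels, in 3 groups of 3. The control had an intact tibia and no NSAID. The active phase group received an open tibia fracture and carprofen, an NSAID that inhibits the COX enzymes, at ZT13, when the mice begin to be active. The resting phase group received the same fracture and the same drug at ZT2, early in the light phase. The drug was given for 3 days, and the methods state its dose, 20 mg/kg, for an earlier experiment of the study. The fracture was made at the same time of day in all operated mice. All mice were killed at ZT6, which for the operated mice was 78 hours after surgery. The last dose then lay more than 18 hours back in the active phase group and more than 30 hours back in the resting phase group. The methods name wild-type C57BL/6J mice and, in the first experiment, an age of 4 months. Fracture without the drug was not among the groups, so differences from the control hold the fracture and the drug together, and both comparisons with the control use the same 3 control arrays. The paper speaks of RNA pools as well as of single mice, so p-values here refer to the spread among the RNA samples, which may be partly technical.

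The tissue taken was the middle of the tibia, including callus and hematoma in the operated mice, a mixture of bone, marrow and blood cells and adhering muscle. All values are the authors' normalized signals on GeneChip Mouse Gene 2.0 ST arrays, taken as log2 from their range. Array medians lay between 6.34 and 6.40, and arrays correlated at 0.98 to 0.99 within groups. Osteoblast and osteocyte genes, a list added after the data were seen, had mean signals of 8.09 to 9.42 over the arrays. Within this list, group means ran from 5.90 (Bglap) to 11.9 (Ibsp, a bone matrix protein), both in the resting phase group. The means of Bglap lay below the array medians in each group. In this tissue, fewer cells of a type and less RNA per cell cannot be told apart. A signal depends on the probes as well as on the transcript, so levels are compared between arrays and not between genes.

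Fracture with NSAID was accompanied by a large rise of a pair of the 10 genes, Saa3 and Orm2, in both operated groups. Haptoglobin fell in the active phase group. The other 7 passed in neither comparison with the control, and 5 of these, Saa1, Saa2, Saa4, Crp and Apcs, lay in the lowest 40% of rows by mean signal. By limma, at a p under 0.05 after Benjamini-Hochberg adjustment over all rows, 2 genes were higher and 1 lower in the active phase group, where 11.8% of all rows were higher and 12.1% lower. In the resting phase group 2 passed and both were higher, where 9.08% of all rows were higher and 19.1% passed in either direction. None of these calls was kept by the methods' t-test after adjustment over all rows, where the adjusted p of these genes lay between 0.063 and 0.11. For a set of 10 genes these counts are close to the shares of all rows, so the values that follow describe single genes and not the set. The median log2 difference of the 10 genes was 0.08 and 0.11, against 0.02 over all rows in each comparison.

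Every array of the active phase group lay above every control array for 4 genes (Saa1, Saa3, Orm2 and Apcs) and below for 1 (Hp), where 18.9% and 17.6% of all rows did so. In the resting phase group, 4 genes (Saa1, Saa3, Orm2 and Lbp) lay above the control, against 17.6% of all rows. With 3 arrays on each side, the two-sided exact permutation test reaches no p lower than 0.10, which was its value for each of these genes.

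**Figure D1:**
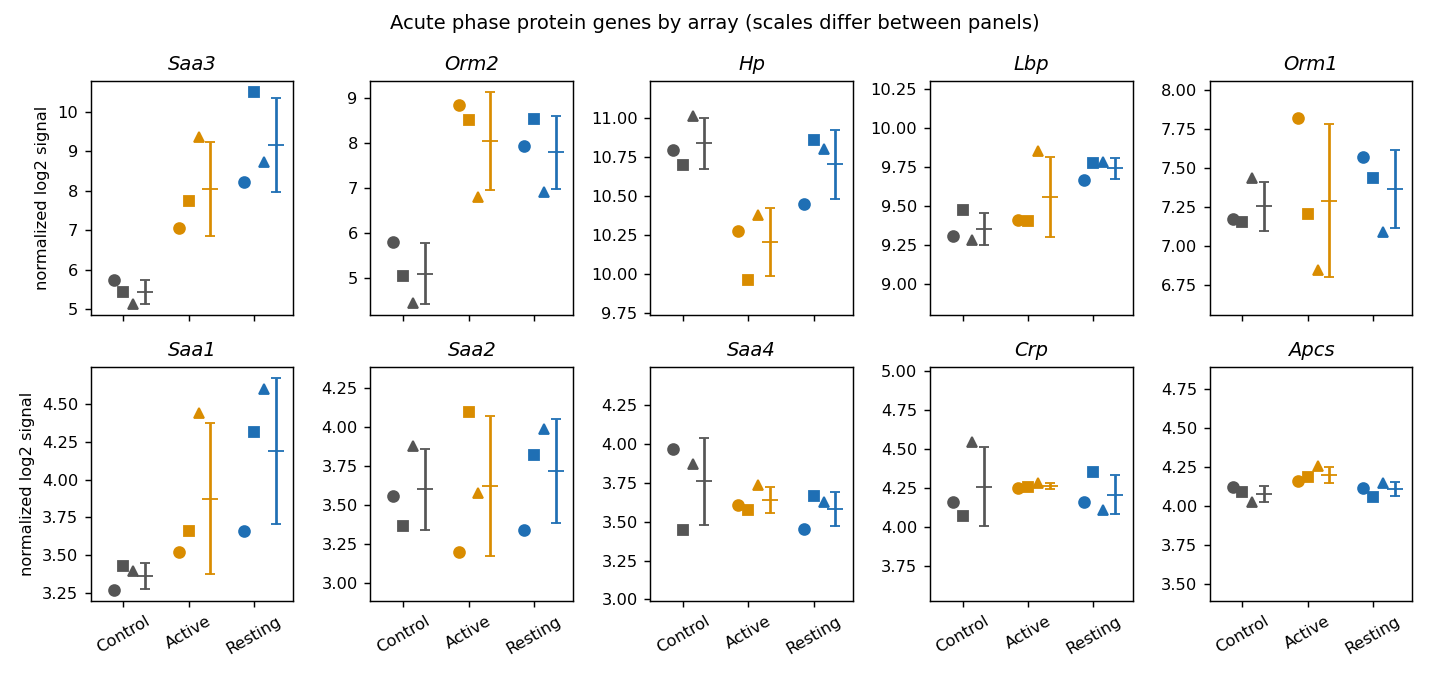
Normalized log2 signal of the 10 acute phase protein genes in each of the 9 arrays (circle, square and triangle: replicates 1, 2 and 3 of the table with gene symbols; bars: mean ± SD, n = 3); the vertical scales differ between panels. Saa3 and Orm2 lay above all control arrays in all 6 operated arrays, and Hp lay lower in the active phase group than in both other groups.

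Saa3 encodes a serum amyloid A protein that in mice is made mainly outside the liver, by macrophages, fat cells and other stromal cells. Its log2 signal was 5.75, 5.45 and 5.14 in the control arrays. It was 7.05, 7.75 and 9.37 in the active phase group and 8.24, 10.52 and 8.73 in the resting phase group. The groups with fracture did not overlap the control, but they overlapped each other and spread over 3.46 log2 units. Saa3 rose by 2.61 in the active phase group on the log2 scale (SE 0.62, adjusted p = 0.010 from limma), which is 6.10-fold (95% interval 2.37 to 15.7). It rose by 3.71 in the resting phase group (SE 0.62, adjusted p = 0.0017 from limma), or 13.1-fold (95% interval 5.11 to 33.7). The size of both rises rested partly on single arrays: without active replicate 3 the first was 3.87-fold, and without resting replicate 2 the second was 8.21-fold, and both still passed.

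The other serum amyloid A genes lie beside Saa3 on chromosome 7. Saa1 and Saa2 encode the forms that the liver secretes into plasma during inflammation, where they travel on high-density lipoprotein, and Saa4 encodes a form that is made constitutively. The probe set behind the row named Saa1 is annotated to both Saa1 and Saa2 by the platform, so this row cannot be given to 1 of them. Its signal was 3.27, 3.43 and 3.39 in the control, 3.52, 3.66 and 4.44 in the active phase group and 3.66, 4.32 and 4.60 in the resting phase group. All operated arrays were above the control, by mean log2 differences of 0.51 (adjusted p = 0.21) and 0.83 (adjusted p = 0.0503) in limma, neither of which passed. Without resting replicate 1 the second difference was 1.09 and passed (adjusted p = 0.010 from limma). Without any other single control or resting phase array it was 0.62 to 0.86 and did not pass (adjusted p = 0.10 to 0.19 from limma). Over the alternatives, each at its own threshold, it passed in 7 of 18. The highest array of the active phase group was replicate 3 for this row and for Saa3, while in the resting phase group it was replicate 3 for this row and replicate 2 for Saa3.

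Saa2, on a probe set of its own, ranged from 3.20 to 4.10 over all arrays and Saa4 from 3.44 to 3.97. The groups overlapped for both genes. The log2 differences from the control were 0.02 and 0.12 for Saa2 (95% intervals -0.50 to 0.55 and -0.41 to 0.64) and -0.12 and -0.18 for Saa4 (95% intervals -0.43 to 0.19 and -0.49 to 0.13). Thus of the serum amyloid A genes at this locus, Saa3 was the 1 that passed against the control.

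The upstream sequences of Saa3 and Saa1 are shown because these neighbours differed in this call, which for the row named Saa1 depended on the processing. They are the 250 bases before the transcript start in the RefSeq promoter table (GRCm38.p6), both on the minus strand, at chr7:46715677-46715926 for Saa3 and chr7:46742981-46743230 for Saa1. Both starts lie within the span annotated to the gene. Capitals mark matches to TTGCNNAA, a motif bound by C/EBP factors, which act downstream of interleukin-6 and interleukin-1 at many acute phase genes.

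Saa3: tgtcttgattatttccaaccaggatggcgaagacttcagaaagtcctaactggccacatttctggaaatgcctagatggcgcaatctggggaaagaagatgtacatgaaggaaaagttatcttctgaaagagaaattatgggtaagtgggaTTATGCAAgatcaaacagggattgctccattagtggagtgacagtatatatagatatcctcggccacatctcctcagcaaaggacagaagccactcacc

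Saa1: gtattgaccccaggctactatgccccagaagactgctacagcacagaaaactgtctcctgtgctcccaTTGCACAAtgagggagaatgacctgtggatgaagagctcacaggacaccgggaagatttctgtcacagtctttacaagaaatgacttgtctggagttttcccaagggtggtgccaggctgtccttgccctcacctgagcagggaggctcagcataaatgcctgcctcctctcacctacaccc

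The match in Saa3 begins at position -99 from the start on the reverse strand, and that in Saa1 at -182 on the forward strand. In a global alignment, 48.5% of positions were identical between these 2 windows, while Saa1 and Saa2 were identical at 94.8%. The table held promoters for 7 of the 10 genes. Searched on both strands, TTGCNNAA was found in 5 of the 7 (Saa1, Saa2, Saa3, Saa4 and Orm2) and in 9.56% of all 32851 promoters cut to the same length. The STAT motif TTCNNNGAA was found in 1 (Apcs, against 7.02% of all promoters), the TATA box TATAAA in 2 (Orm2 and Crp, against 12.4%) and the NF-kB motif in 0 (against 7.25%). The C/EBP and STAT motifs can match both strands at 1 place, as they did in Orm2 and Apcs. The serum amyloid A genes are related copies, so their matches are not independent, and genes with and without a difference held the C/EBP motif.

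The alpha-1-acid glycoproteins, or orosomucoids, are lipocalins that bind small molecules in plasma. Orm2 had a log2 signal of 5.78, 5.04 and 4.44 in the control. It reached 8.83, 8.51 and 6.79 in the active phase group and 7.93, 8.53 and 6.91 in the resting phase group. All operated arrays lay at least a full log2 unit above the highest control array, and the lowest array of each operated group was replicate 3. Orm2 rose by 2.96 in the active phase group on the log2 scale (SE 0.55, adjusted p = 0.0025 from limma), or 7.76-fold (95% interval 3.35 to 18). In the resting phase group it rose by 2.70 (SE 0.55, adjusted p = 0.0055 from limma), or 6.51-fold (95% interval 2.81 to 15.1). With single arrays left out, the first rise lay between 5.91-fold (without active replicate 1) and 12-fold (without active replicate 3). The second lay between 5.04-fold (without resting replicate 2) and 8.81-fold (without resting replicate 3). Both rises still passed each time.

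Saa3 and Orm2, the 2 genes that rose, did not follow each other in every array. Active replicate 1 had the highest Orm2 signal of all arrays and the lowest Saa3 signal of the operated arrays. Active replicate 3 had the lowest Orm2 signal of the operated arrays and the second highest Saa3 signal of all arrays. Resting replicate 2, in contrast, was high for both, with the highest Saa3 and the second highest Orm2 signal of all arrays. This is a description of single arrays and was not tested.

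Orm1, the neighbour of Orm2 on chromosome 4 and in mouse liver the main orosomucoid gene, did not move with it. Its signal was 7.17, 7.15 and 7.44 in the control, 7.82, 7.20 and 6.85 in the active phase group and 7.57, 7.44 and 7.09 in the resting phase group. The groups overlapped, with log2 differences of 0.04 (95% interval -0.45 to 0.53) and 0.11 (95% interval -0.38 to 0.60) from the control. Orm3, which lies between them and was looked up after the values were seen, had means of 5.12 ± 0.47 in the control, 5.07 ± 0.43 in the active and 5.44 ± 0.15 in the resting phase group (SD, n = 3), with log2 differences of -0.05 and 0.31 (adjusted p = 0.92 and 0.46 from limma). Probes of such close copies can share transcripts, and this was not tested.

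The windows of 250 bases before the starts of Orm2 and Orm3 are shown because these neighbours are much alike in sequence and differed in signal. Both are on the plus strand of GRCm38.p6, at chr4:63362199-63362448 for Orm2 and chr4:63355908-63356157 for Orm3, where the start lies within the annotated gene. Capitals again mark TTGCNNAA.

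Orm2: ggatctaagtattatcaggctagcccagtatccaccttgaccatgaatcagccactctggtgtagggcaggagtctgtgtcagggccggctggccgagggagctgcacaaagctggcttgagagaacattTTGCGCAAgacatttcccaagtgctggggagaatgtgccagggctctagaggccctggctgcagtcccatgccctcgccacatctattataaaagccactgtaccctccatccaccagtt

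Orm3: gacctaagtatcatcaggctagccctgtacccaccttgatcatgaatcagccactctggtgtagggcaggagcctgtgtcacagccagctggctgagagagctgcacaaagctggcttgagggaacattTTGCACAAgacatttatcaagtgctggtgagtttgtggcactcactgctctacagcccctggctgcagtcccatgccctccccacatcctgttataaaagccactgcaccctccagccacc

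The 2 windows were identical at 85.5% of aligned positions. The motif begins at -120 in Orm2, where it reads the same on both strands, and at -121 in Orm3. A TATAAA begins at -33 in Orm2 and at -29 in Orm3. Both windows thus held the same pair of motifs, while the signal rose in Orm2 and did not pass in Orm3.

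Haptoglobin binds free hemoglobin for clearance through the receptor CD163, and besides hepatocytes it is made by maturing neutrophils. Hp had a log2 signal of 10.79, 10.70 and 11.02 in the control. It was 10.28, 9.96 and 10.38 in the active phase group and 10.45, 10.86 and 10.80 in the resting phase group. All arrays of the active phase group lay below all control arrays and all resting phase arrays, while the resting phase group overlapped the control. Hp fell by 0.63 on the log2 scale in the active phase group (SE 0.15, adjusted p = 0.011 from limma), a 1.55-fold difference. In the resting phase group the log2 difference was -0.13 (95% interval -0.47 to 0.20, adjusted p = 0.63 from limma).

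Markers of neutrophils and their precursors were lower in both operated groups, also in the resting phase group, where Hp overlapped the control. All 18 markers fell in the active phase group (median log2 difference -1.29) and 9 fell in the resting phase group (median -0.67), and their mean signal was 10.65 to 10.90 in the control, 9.20 to 9.80 in the active and 10.03 to 10.32 in the resting phase group. The ranges of the 3 groups did not overlap, and active replicate 2 was the lowest array for these markers and for Hp. Within the resting phase group the order was not shared: replicate 1 was the highest for these markers (10.32) and the lowest for Hp (10.45). None of the 18 lay in the lowest 40% of rows. Lcn2, a neutrophil granule protein that binds bacterial siderophores and is itself an acute phase gene, fell by 0.90 in the active phase group (adjusted p = 0.0018 from limma) and had a log2 difference of -0.45 in the resting phase group (adjusted p = 0.076). Erythroid markers fell as well, 6 of 6 in each group, with medians of -3.86 and -2.62. The part of these cells in the difference of Hp was not tested.

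Lbp encodes the plasma protein that hands bacterial lipopolysaccharide to CD14 and so to TLR4. Its signal was 9.31, 9.47 and 9.28 in the control, 9.41, 9.40 and 9.85 in the active phase group and 9.66, 9.78 and 9.78 in the resting phase group. All resting phase arrays lay above the control, and the active phase arrays overlapped both. The log2 difference was 0.20 in the active (SE 0.13, adjusted p = 0.34 from limma) and 0.39 in the resting phase group (SE 0.13, adjusted p = 0.070 from limma). Neither passed. After quantile normalization the second was 0.43 with an adjusted p = 0.027 from limma. Over the alternatives, by limma or the methods' t-test, its adjusted p lay between 0.027 and 0.19, and it passed in 4 of 19.

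The pentraxins CRP and serum amyloid P component, encoded by Crp and Apcs on chromosome 1, bind phosphocholine and chromatin on dying cells and microbes. In mice it is Apcs, not Crp, that responds strongly in the liver. Here Crp ranged from 4.07 to 4.55 over all arrays and Apcs from 4.02 to 4.26. The groups overlapped for Crp, with log2 differences of 0.01 (95% interval -0.29 to 0.30) and -0.05 (95% interval -0.34 to 0.24) from the control. For Apcs the active phase arrays, 4.16, 4.19 and 4.26, lay just above the control arrays, 4.12, 4.09 and 4.02, a log2 difference of 0.12 (adjusted p = 0.40 from limma), and in the resting phase group it was 0.03 (adjusted p = 0.87).

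**Figure D2:**
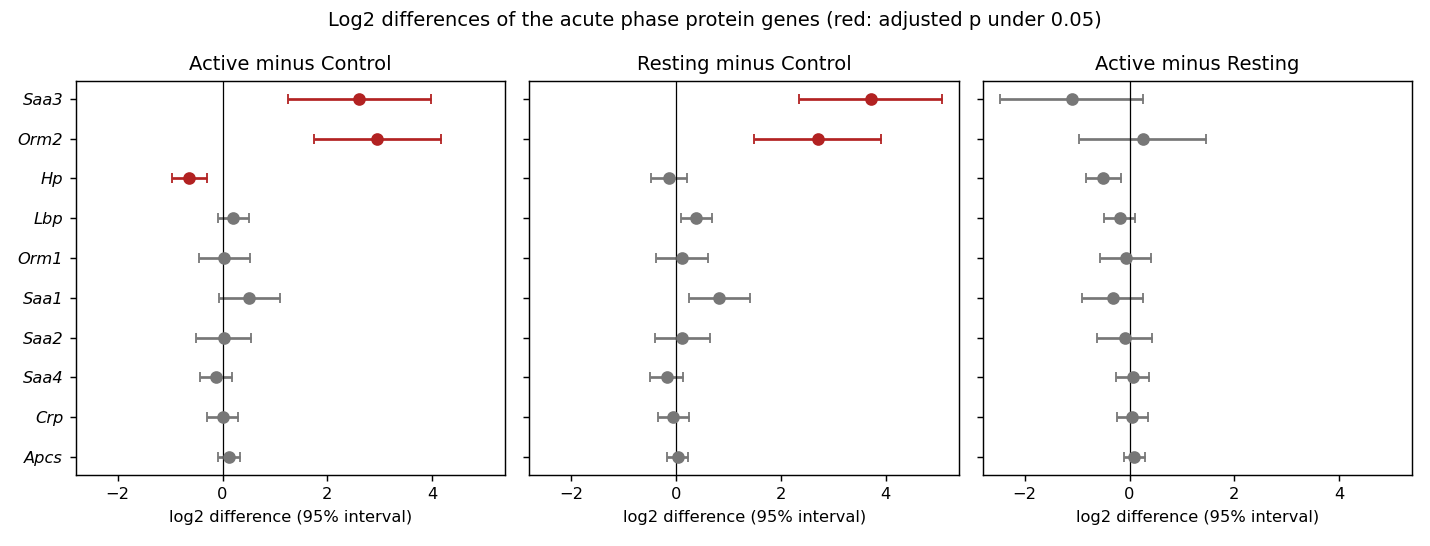
Log2 differences of the 10 genes with 95% intervals from the limma fit of all 9 arrays, for the active phase group against the control, the resting phase group against the control and the active against the resting phase group. Red points passed an adjusted p under 0.05: Saa3, Orm2 and Hp in the first comparison, Saa3 and Orm2 in the second and none in the third.

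The time of NSAID administration was compared directly between the operated groups. None of the 10 genes passed by limma, as none of all rows did (0% called), although 35 rows, none of them of these genes, passed without active replicate 1. At an unadjusted p under 0.05, 1 gene passed, Hp, where 6.11% of all rows passed, and the methods' t-test called 0 after adjustment. Hp was lower in the active phase group by a log2 difference of -0.50 (SE 0.15, 95% interval -0.83 to -0.16, adjusted p = 0.62). Hp and Apcs were the genes whose operated groups did not overlap, Hp lower and Apcs higher in the active phase group, against 9.94% of all rows in either direction.

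For Saa3 the active minus resting difference was -1.11 (SE 0.62, 95% interval -2.47 to 0.25), and for Orm2 it was 0.25 (SE 0.55, 95% interval -0.96 to 1.47). Single arrays moved both values by over 1.5-fold. The Saa3 difference was -1.76 without active replicate 3 and -0.43 without resting replicate 2. That of Orm2 was 0.88 without active replicate 3, and its sign turned without active replicate 1 (-0.14) and without resting replicate 3 (-0.18). The intervals are wide enough to hold no difference as well as one of over 2-fold in either gene. For the other 7 genes, differences lay between -0.32 (the row named Saa1) and 0.09 (Apcs). All 18 neutrophil markers had a lower mean with active phase dosing (median difference -0.52), of which 0 passed adjustment. All 6 erythroid markers had a lower mean as well (median difference -1.16). In contrast, 9 of 11 adipocyte and 7 of 8 skeletal muscle markers had a higher mean. Of these too, 0 passed adjustment.

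The cytokines that induce acute phase genes were next examined in the same tissue. Of 8 ligand genes, 3 rose and 1 fell in each operated group. Il6, the main inducer of hepatic acute phase genes, rose by 0.85 log2 units with active phase and by 0.98 with resting phase dosing (limma, adjusted p = 0.0029 and 0.0016). Its signal was 4.37 in the control, 5.23 in the active and 5.35 in the resting phase group, in the lowest 40% of rows. Il11 rose by 0.62 and 0.73, and Ctf1, cardiotrophin-1, by 0.44 and 0.40. Il1a fell by 1.21 and 1.48. Osm, oncostatin M, had log2 differences of -0.30 and -0.10, and Il1b of -0.54 and -0.06, none of which passed.

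Among 8 receptor genes, 2 rose and 1 fell after active phase dosing (all rows: 11.8% and 12.1%). After resting phase dosing 4 rose and 0 fell (all rows: 9.08% and 10%). With 8 genes, these counts too describe single genes. Il1r1, the signalling receptor of interleukin-1, rose by 1.63 and 1.72, and Osmr, the receptor of oncostatin M, by 1.56 and 1.48. Il6ra, the binding receptor of interleukin-6, fell by 0.71 in the active phase group (adjusted p = 0.0025 from limma) and had a log2 difference of -0.37 in the resting phase group (adjusted p = 0.084). Il6st, the shared signalling chain, had a difference of 0.36 in the active phase group (adjusted p = 0.068) and rose by 0.52 in the resting phase group (adjusted p = 0.015).

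Of 12 signal transducers and transcription factors, 0 rose and 1 fell in the active phase group (all rows: 11.8% and 12.1%). In the resting phase group 1 rose and 0 fell (all rows: 9.08% and 10%). These counts describe single genes and not the list. Jak2, a kinase of cytokine receptors, fell by 0.55 in the active phase group (adjusted p = 0.024). Stat3, the factor that carries the interleukin-6 signal, rose by 0.46 in the resting phase group (adjusted p = 0.015) and had a difference of 0.32 in the active phase group (adjusted p = 0.063). Its feedback inhibitor Socs3 had differences of 0.17 and 0.34, Cebpb of 0.12 and 0.24 and Cebpd of 0.19 and 0.28, none of which passed. All 12 had means within 0.55 log2 units of the control.

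Receptors and partners through which these proteins act included single genes that moved in either direction. Of 13 genes, 2 rose and 2 fell in each group, counts close to the shares of all rows, so the values describe single genes and not the list. Cd14, the partner of Lbp, rose by 1.14 and 1.29, and Fcgr1, an Fc receptor that also binds pentraxins, by 1.37 and 1.26. The formyl peptide receptors Fpr1 and Fpr2, the second of which binds serum amyloid A, fell by 1.43 and 0.96 in the active phase group and by 1.07 and 0.53 in the resting phase group. Cd163, the receptor of the haptoglobin and hemoglobin complex, had differences of 0.30 and 0.07 and passed in neither.

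Other genes of the acute phase response included some that rose and some that fell. The active phase group had 6 of 22 that rose and 3 that fell (all rows: 11.8% and 12.1%). For the resting phase group these numbers were 6 and 1 (all rows: 9.08% and 10%). The medians were 0.03 and 0.08. Serpina3n, a protease inhibitor made by many cells in inflammation, rose by 3.52 and 3.62. Mt2, a metallothionein, rose by 2.22 and 2.39, and Serping1, the C1 inhibitor, by 0.94 and 0.91. The 3 fibrinogen chain genes Fga, Fgb and Fgg, made in the liver, lay in the lowest 40% of rows with log2 differences between -0.004 and 0.28, none of which passed; they are named although the rule for named genes did not take them.

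Genes typical of hepatocytes gave the background for transcripts of liver origin. Of 24, 0 rose and 1 fell in each group, with medians of 0.03 and 0.04, and 18 lay in the lowest 40% of rows. The shares over all rows were 11.8% and 12.1% in the active and 9.08% and 10% in the resting phase group. Alb, albumin, had a log2 signal of 5.36 in the control, 5.67 in the active and 5.67 in the resting phase group (adjusted p = 0.21 and 0.24 from limma). Kng1, kininogen, was the gene that fell, by 0.85 and 0.79. The mean signal over the list was 5.15 to 5.22 in the control, 5.18 to 5.19 in the active and 5.11 to 5.24 in the resting phase group, so that all groups overlapped. Saa3 and Orm2 were thus higher in operated tibiae in which these hepatocyte genes as a list were not.

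Markers of cells that can transcribe Saa3 outside the liver differed in the same comparisons. Of 12 macrophage markers, 8 rose and 0 fell in each group, and their mean signal was 7.54 to 7.99 in the control, 8.50 to 8.68 in the active and 8.36 to 8.76 in the resting phase group. Of 12 fibroblast and repair matrix markers, 10 and 11 rose and 0 fell, with means of 8.91 to 9.30 in the control, 10.4 to 10.7 in the active and 10.4 to 10.8 in the resting phase group. Of 11 adipocyte markers, 0 rose and 2 fell in the active and 4 fell in the resting phase group. Of 8 skeletal muscle markers, 2 rose in the active phase group and 0 in the resting phase group. The part of any of these cells in the rises of Saa3 and Orm2 was not tested.

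**Figure D3:**
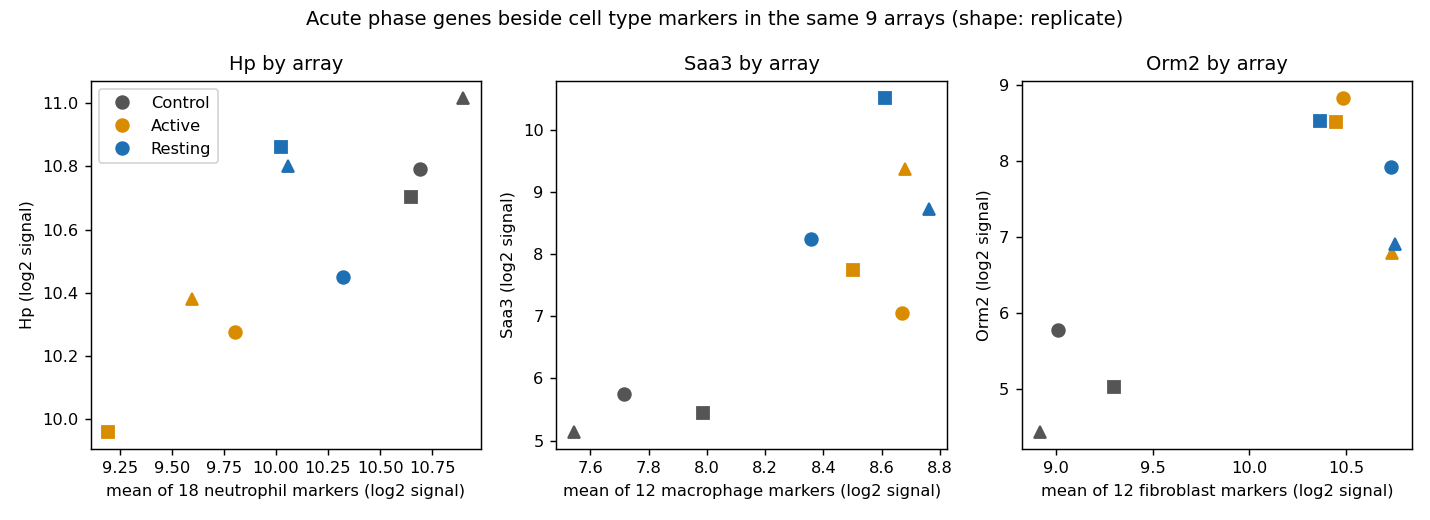
Hp against the mean of 18 neutrophil markers, Saa3 against the mean of 12 macrophage markers and Orm2 against the mean of 12 fibroblast markers, each point 1 array (log2 signals; circle, square and triangle: replicates 1, 2 and 3). For Hp the active phase arrays are lowest on both axes, while for Saa3 and Orm2 the operated arrays lie apart from the control but spread widely among themselves.

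The genes whose pattern over the 9 arrays was most like that of 3 members were also ranked by Pearson's r, among 4676 genes that ranged over at least 1 log2 unit, as a description. For Saa3 they were Slc13a3, a dicarboxylate transporter (r = 0.98), Nxpe5 (r = 0.96), Nek6, a mitotic kinase (r = 0.95), Il4ra, the receptor chain of interleukin-4 and interleukin-13 (r = 0.95), and Ccl7, a monocyte chemokine (r = 0.95). Ccl7 had means of 6.20 in the control, 7.93 in the active and 8.03 in the resting phase group.

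For Hp the nearest genes were Cml3 (r = 0.92), Arrb2, beta-arrestin 2 (r = 0.92), Itgam, the CD11b chain of neutrophils and other myeloid cells (r = 0.92), Il6ra (r = 0.92) and Mei4 (r = 0.91). Itgam had means of 10.1, 9.50 and 9.93 in the control, active and resting phase groups. For Lbp they were Adap2 (r = 0.95), Car13, a carbonic anhydrase (r = 0.93), the row named Saa1 (r = 0.91), Plin2, a coat protein of lipid droplets (r = 0.91), and Oas1g (r = 0.90). The 9 points of each r belong to 3 groups and include the differences between them.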

How the data were processed

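In all, 9 RNA samples from tibiae, 3 per group, were measured on GeneChip Mouse Gene 2.0 ST arrays. The authors labelled 100 ng of total RNA per array, normalized the signals and kept entities flagged present in GeneSpring GX 10. Their deposited values are taken here as log2 from their range. The genome build, the scale and the normalization method were not given in the sources used here. Arrays have no read depth, and precision is limited by their number.

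Groups were compared on the table with gene symbols with limma 3.58.1 in R 4.3.3 (lmFit, then eBayes). All 9 arrays entered 1 fit, which left 6 residual degrees of freedom. Benjamini-Hochberg adjustment covered the 24367 rows. Where a symbol had more than 1 row, the brightest on average stood for it. Single genes were also compared by two-sided exact permutation tests (scipy 1.17.1). The scripts for these fits were also tested on simulated data. Replicates are numbered as in the table with gene symbols. In the table of 41345 probe sets every row was found again with the same values, but with other replicate numbers within the active and resting groups.

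The 10 genes and the lists around them were chosen with earlier results of these data known. Of 162 list symbols, 160 had a row, and 1 further gene is not reported here. Named genes are the 10, up to 4 of each pathway list with the smallest p in the active phase group against the control, some set cytokines, factors and receptors, and the 5 genes most like Saa3, Hp and Lbp. Promoters came from RefSeq (GRCm38.p6) and were aligned with Biopython 1.88. Figures were drawn with matplotlib 3.10.9.

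Alternatives tried were a change of table (all probe sets), of test (the methods' t-test, an added 2-fold threshold), of arrays (the 6 compared alone, or each left out in turn), of scaling (quantile, median centring), of model (array weights, intensity trend, replicate block) and of rows (the lowest 40% dropped, or the mean per gene). A block from the numbers of the probe set table was added after the data were seen.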

Additional observations from a re-analysis of the deposited data

How the results depend on the processing

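The numbers of genes called were 3 in the active and 2 in the resting phase group against the control and 0 between these groups. They were called on the moderated fit: with the methods' t-test 0 and 0 genes passed after adjustment over all rows, where the adjusted p was 0.11 and 0.063 for Saa3, 0.096 and 0.085 for Orm2 and 0.095 for Hp, and all rows called numbered 2241 and 1978, against 5826 and 4653. At the methods' own threshold, an unadjusted p under 0.05 and 1.5-fold, the t-test called 3 and 3. There it also called 15.4% and 12.7% of all rows. In the resting phase group 4 genes passed with only the 6 arrays compared and 4 with array weights, the additions being Saa1 and Lbp. All rows called in these 2 settings numbered 4722 and 5781. Leaving out each array gave 3 genes in the active phase group, 2 to 3 in the resting phase group and 0 between the groups. Requiring 2-fold removed Hp (2 and 2 genes, of 1718 and 1358 rows). A filter on low signal dropped 5 of the 10 genes, which then had no value. Over the alternatives no called difference changed direction.

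The deposited tables number the replicates differently, and deviations of same-numbered arrays correlated at -0.25 to 0.17, so the numbers do not pair the samples. With the replicate number as a block, 3, 3 and 0 genes passed, the addition being Saa1, and with the numbers of the other deposited values 2, 2 and 0, where Saa3 in the active phase group had an adjusted p = 0.064.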
